A study of Mus musculus with 18 samples.

Results

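The mir-30 family is a group of microRNAs that share a seed, the stretch of bases near the 5′ end that pairs with target mRNAs. Its 5 entries, mmu-mir-30a, mmu-mir-30b, mmu-mir-30c, mmu-mir-30d and mmu-mir-30e (written without the prefix from here on), were taken by name from the 1006 microRNA entries of the deposited counts, and all 5 are described here. A further entry, mir-30f, was not among those chosen and had 0 counts in control and ERH and at most 4 in a SAFB library. The 18 small RNA libraries came from Baf3 cells, an established pro-B line of the mouse that depends on interleukin-3 for growth. All cells carried Cas9, puromycin selection and fluorescent reporters of miR-15a and miR-16 activity, both in mutated form. They differed in a single guide RNA, which targeted Rag1 (control), both Safb1 and Safb2 (SAFB) or Erh (ERH). Each genotype had 2 guides, and each of the 6 guide populations gave 1 library in each of 3 labelled batches, so that a genotype had 6 libraries from 2 edited populations. The SAFB and ERH cells had been sorted as polyclonal populations in which the miR-15a reporter was derepressed, and regrown. Whether control cells were sorted is not given in the sources used here. Small RNA sequencing does not read the targeted mRNAs, so the loss of SAFB or ERH could not be checked in these libraries.

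MicroRNAs are made from hairpins within longer primary transcripts. The Microprocessor, a complex of the RNase Drosha and its partner DGCR8, cuts the hairpin out in the nucleus, Dicer removes its loop, and 1 strand is loaded into an Argonaute protein. ERH binds DGCR8, and SAFB proteins are nuclear RNA-binding proteins. Both have been linked to cluster assistance, in which a hairpin that Drosha cuts poorly is cut better when a second hairpin lies on the same transcript. The mir-30 hairpins lie in pairs, so the family allows partners of one locus to be compared while the seed stays the same.

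The family is encoded by 6 hairpin genes at 3 loci. Positions are those of GENCODE M21 on GRCm38, and whether the authors used this build is not given in the sources used here. Mir30a (chr1:23272269-23272339, plus strand) has no annotated gene on its strand, and Mir30c-2 (chr1:23291701-23291784, plus strand) overlaps an exon of the lincRNA Gm27028. These partners are 19361 bases apart. Mir30e (chr4:120772606-120772697) and Mir30c-1 (chr4:120769534-120769622) lie 2983 bases apart on the minus strand in introns of Nfyc, which encodes a subunit of the transcription factor NF-Y. Mir30b (chr15:68337415-68337510) overlaps an exon of Gm26621. Mir30d (chr15:68341208-68341289) overlaps exons of Gm37296 and Gm20732, and both genes of that locus are on the minus strand, 3697 bases apart. The deposited counts have 1 entry for both arms and all copies of a microRNA, so mir-30c is the sum of Mir30c-1 and Mir30c-2. Any comparison of mir-30a or mir-30e with mir-30c is therefore not a comparison within a single locus, whereas mir-30b and mir-30d each come from 1 gene.

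The mature sequences show why reads of some members are hard to tell apart. They are given 5′ to 3′ from RefSeq (GRCm38.p6), in which 4 of the 6 genes had an entry, and capitals mark the seed (bases 2 to 8).
miR-30a-5p: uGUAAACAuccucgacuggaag
miR-30e-5p: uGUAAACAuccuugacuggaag
miR-30c-5p: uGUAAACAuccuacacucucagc
miR-30a-3p: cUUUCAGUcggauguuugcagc
miR-30e-3p: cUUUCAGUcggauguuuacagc
miR-30c-1-3p: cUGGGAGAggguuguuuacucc
miR-30c-2-3p: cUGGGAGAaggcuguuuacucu
With positions counted from 1 at the 5′ end, the 5p arms of mir-30a and mir-30e differ by the single substitution C13U, and their 3p arms by G18A. From miR-30a-5p to miR-30c-5p there are 5 substitutions, C13A, G14C, G18C, G19U and A20C. The 5p arm of both mir-30c copies is the same, and their 3p arms differ by G9A, U12C and C22U. The 5p seed GUAAACA is shared in that table only with miR-384-5p, whose entry had 0 counts in all 18 libraries, where a count of 0 allows up to 3 counts in a library. The 3p arms fall into 2 seed groups, UUUCAGU for mir-30a and mir-30e and UGGGAGA for mir-30c, and reads of the arms are summed in the deposited entries. How reads that fit mir-30a and mir-30e about equally well were assigned is not given in the sources used here, so the split between those entries is uncertain.

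The hairpins are shown with both mature arms in capitals, because the partners at the chromosome 1 and chromosome 4 loci differ in the sequence around and between the arms as well as in the arms.
Mir30a: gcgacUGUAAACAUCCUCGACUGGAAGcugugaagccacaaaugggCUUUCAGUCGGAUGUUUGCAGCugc
Mir30c-2: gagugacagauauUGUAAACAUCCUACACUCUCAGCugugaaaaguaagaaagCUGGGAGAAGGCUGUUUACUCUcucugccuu
Mir30e: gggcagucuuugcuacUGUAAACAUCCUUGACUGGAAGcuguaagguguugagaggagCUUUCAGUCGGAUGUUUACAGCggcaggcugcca
Mir30c-1: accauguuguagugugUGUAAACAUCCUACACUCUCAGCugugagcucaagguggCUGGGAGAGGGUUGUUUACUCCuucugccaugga
Folded with RNAfold, the hairpins of Mir30a and Mir30e had minimum free energies of -37.2 and -51.8 kcal/mol, and those of Mir30c-2 and Mir30c-1 of -29.4 and -34.3 kcal/mol. The lengths differ (71, 92, 84 and 89 bases, in that order), so the energies were divided by length. Mir30a was then at -0.524 and Mir30e at -0.563 kcal/mol per base, with 11.8% and 6.8% of the 1005 mouse hairpins in the table below them. The mir-30c hairpins were at -0.35 (Mir30c-2) and -0.385 (Mir30c-1), on the other side of the median of -0.406. At both loci the mir-30c hairpin was thus predicted to be the less stable of the pair, on sequences that end where the annotation ends. The motif UGUG between the arms, searched on the transcribed strand, was in Mir30a, Mir30c-1 and Mir30c-2 and was not in Mir30e, against 78 of 644 hairpins (12.1%) that have both arms annotated.

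The libraries held 2699323 to 4470073 microRNA counts, with 396 to 455 entries detected in each. Spike-ins took 0.165% to 0.366% of counts. The family took 2.13% to 2.23% of the microRNA counts in control, 2.11% to 2.27% in SAFB and 2.31% to 2.42% in ERH libraries. Markers of blood cells were abundant: the summed level of mir-142a, mir-155, mir-181a, mir-223 and mir-150 had a median of 158250 CPM in control, 161620 in SAFB and 137730 in ERH (CPM, counts scaled to library size after TMM). By the test described below, 2 of these 5 were called higher in SAFB (mir-181a and mir-223) and 1 lower (mir-150), and in ERH 1 was called higher (mir-181a) and 3 lower (mir-142a, mir-155 and mir-150). The erythroid markers mir-451a and mir-144 summed to at most 2.31 CPM, and the muscle markers mir-1a, mir-133a and mir-206 to at most 5.80 CPM. Several markers of other cell types moved with genotype by the same test. The liver marker mir-122 reached at most 34.2 CPM and was called higher in ERH. The sum of mir-143, mir-145, mir-199a and mir-214 (smooth muscle and fibroblast) reached at most 44.4 CPM, and 1 of its 2 tested entries, mir-143, was called higher in SAFB. The endothelial marker mir-126a was at 2921 to 4587 CPM and was called lower in both SAFB and ERH. The 7 epithelial entries summed to 145 to 202 CPM in control, 197 to 229 in SAFB and 151 to 190.4 in ERH, and of the 6 tested, 4 were called higher in SAFB and 1 in ERH. Neural markers are given beside mir-30a, and the part of any of these markers in the results was not tested.

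Within the family, mir-30e was the most abundant member in every library and mir-30a the least. In control libraries the mean was 16046 ± 776 CPM for mir-30e, 4754 ± 351 for mir-30d, 1771 ± 228 for mir-30c, 1056 ± 151 for mir-30b and 76.7 ± 12.1 for mir-30a (SD, n = 6). These means rank 14, 31, 46, 62 and 95 among the 1006 entries when taken over all libraries. The order e, d, c, b, a was the same in SAFB and in ERH, and within each genotype the libraries of neighbours in this order did not overlap. CPM values are not divided by length, but the mature sequences shown above are all 22 or 23 bases long. The steps between neighbours were uneven. In control, mir-30e was 3.38 times mir-30d, mir-30d 2.68 times mir-30c, mir-30c 1.68 times mir-30b and mir-30b 13.8 times mir-30a. The last step was smaller elsewhere, 5.36 in SAFB and 2.85 in ERH.

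**Figure D1:**
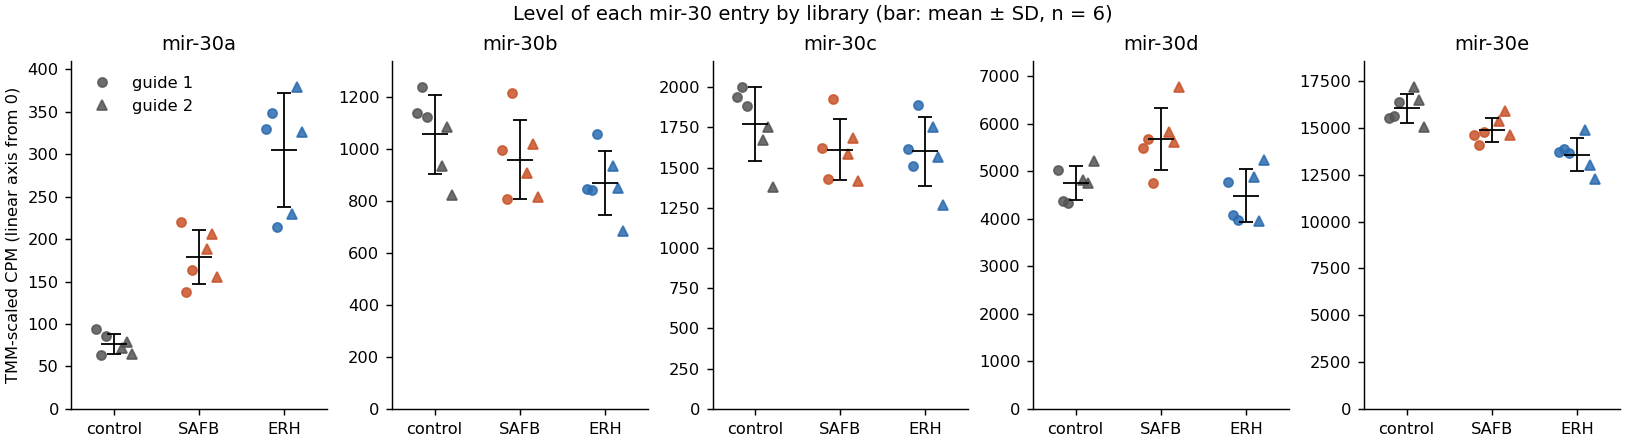
Level of each mir-30 entry in every library, in TMM-scaled CPM on linear axes that start at 0, with circles for guide 1, triangles for guide 2 and bars for mean ± SD (n = 6 libraries per genotype). Only mir-30a shows 2 knockout groups that both lie wholly above control, from 138 CPM upwards in SAFB and from 214 CPM upwards in ERH against at most 94.5 CPM in control.

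Counts were tested with edgeR's quasi-likelihood test, fitted over all 273 microRNAs that passed a filter on low counts, with Benjamini-Hochberg adjustment over all 273 and calls at an adjusted p under 0.05. All 5 members passed the filter. Changes were common in these cells: 56.0% of tested microRNAs were called between SAFB and control (84 higher, 69 lower), 53.8% between ERH and control (72 higher, 75 lower) and 39.6% between ERH and SAFB (65 higher, 43 lower). With TMM scaling, 2 members rose and 0 fell in SAFB, 1 rose and 2 fell in ERH, and from SAFB to ERH 1 rose and 2 fell, of which the rise of mir-30a alone kept its direction under all scalings. The counts of members called, 2, 3 and 3 of 5, are near those background shares. The median log2 fold change of the 5 members was -0.11, -0.15 and -0.13 in these comparisons, and that of all tested microRNAs 0.0083, -0.061 and 0.042. The members' median depended on the scaling, at -0.066, 0.15 and 0.13 with total counts and at -0.36, 0.16 and 0.41 with spike-ins. The comparisons share their control or SAFB libraries and are not independent.

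mir-30a rose in both knockouts and further in ERH than in SAFB, whereas with TMM scaling the log2 fold changes of the other members were between -0.34 and 0.26 in the 3 comparisons. In control its lowest, median and highest library were at 64.1, 75.3 and 94.5 CPM, from raw counts of 200 to 306. In SAFB they were at 138, 176 and 220.4 CPM. In ERH they were at 214, 328 and 379 CPM. Every SAFB and every ERH library was thus above every control library, and libraries fully apart in either direction were seen for 36.6% of tested microRNAs in SAFB and for 37.4% in ERH. The ERH libraries of guide 1 in batch 3, at 214 CPM, and of guide 2 in batch 1, at 229.6 CPM, were low, and the first overlapped the highest SAFB library. No member had ERH libraries fully apart from SAFB libraries, which 20.5% of tested microRNAs had.

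The log2 fold change of mir-30a against control was 1.22 in SAFB (SE 0.15, adjusted p = 2.95e-07, 2.33-fold) and 1.99 in ERH (SE 0.15, adjusted p = 7.13e-11, 3.98-fold). Between ERH and SAFB it was 0.77 (SE 0.15, adjusted p = 0.000178, 1.71-fold). Both populations of each genotype showed it. Over the 4 pairings of a knockout population with a control population it was 1.10 to 1.35 in SAFB and 1.87 to 2.12 in ERH, and it passed the test in all 8. Within single batches it was 1.09 to 1.30 in SAFB, 1.74 to 2.35 in ERH and 0.43 to 1.11 between ERH and SAFB. With total counts the ERH against SAFB value was 1.04, and with spike-ins 1.31. Among the 273 tested microRNAs the rise of mir-30a ranked 43 in SAFB and 40 in ERH, so some 40 other entries rose by more in each.

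In absolute terms this rise was small beside the rest of the family. mir-30a gained 102 CPM in SAFB and 228 CPM in ERH, and its share of the family's counts went from 0.323% ± 0.048 in control to 0.765% ± 0.126 in SAFB and 1.48% ± 0.372 in ERH (SD, n = 6). The counts of mir-30a were 0.409% to 0.609% of those of mir-30e, its near-identical relative, in control, 0.982% to 1.51% in SAFB and 1.54% to 2.92% in ERH. These ranges do not overlap. The part of read assignment between the 2 entries was not tested.

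The neural marker list fixed for these libraries also rose in both knockouts. Of its 4 entries, 3 were tested (mir-9, mir-128 and mir-218) and 3 were called higher in both knockouts. The log2 fold changes in SAFB and ERH were 2.87 and 4.85 for mir-9, 3.27 and 5.30 for mir-218 and 0.29 and 0.26 for mir-128. Steep rises were not particular to this list, as mir-10a (3.46 and 5.00) and mir-148a (3.35 and 4.75) show. The sum of the list was 1843 to 2248 CPM in control, 2395 to 2965 in SAFB and 2704 to 4452 in ERH, mostly mir-128. Without mir-128 it was 20.9 to 45.1 CPM in control, 204 to 361 in SAFB and 566 to 1787 in ERH. mir-124, the defining neural microRNA, had 0 counts in all control libraries and at most 6 counts in any library. In the ERH guide 1 libraries of batches 1, 2 and 3, mir-30a was at 330.1, 349 and 214 CPM, and this sum at 1681, 1787 and 1269 CPM. In those of guide 2, mir-30a was at 229.6, 379 and 326 CPM and the sum at 907, 614 and 566 CPM. The orders of the libraries thus matched in guide 1, and in guide 2 the library lowest in mir-30a was the highest in the sum. The part of these markers in the rise of mir-30a was not tested.

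mir-30c, the partner of mir-30a on chromosome 1 and of mir-30e on chromosome 4, did not pass the test in any of the 3 comparisons with TMM scaling, but with total-count scaling it was higher in ERH than in SAFB (0.25, adjusted p = 0.0461). Its lowest, median and highest library were 1379, 1818 and 2002 CPM in control, 1418, 1605 and 1929 in SAFB and 1265, 1592 and 1891 in ERH, so that the 3 genotypes overlapped almost fully. The log2 fold change was -0.14 in SAFB (95% interval -0.33 to 0.060) and -0.15 in ERH (-0.34 to 0.050). Between ERH and SAFB it was -0.010 (-0.21 to 0.19). Over the 4 population pairings it was -0.31 to 0.054 in SAFB, with 0 past the test, and -0.34 to 0.063 in ERH, with 1 past it (ERH guide 2 against control guide 1, adjusted p = 0.0388 by edgeR's quasi-likelihood test). Without the control library of guide 1 and batch 2 it was -0.023 in SAFB and -0.057 in ERH. The sign turned in both ERH comparisons with other scalings: against control it was 0.15 with total counts and 0.16 with spike-ins, and against SAFB 0.52 with spike-ins (adjusted p = 0.0543). The entry sums Mir30c-1 and Mir30c-2, so the level of either copy alone was not measured.

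mir-30e, hosted with Mir30c-1 in Nfyc, fell in ERH with TMM scaling, although its log2 fold change was 0.062 with total-count and 0.042 with spike-in scaling. Its lowest, median and highest library were 15061, 16025 and 17189 CPM in control and 12293, 13679 and 14891 CPM in ERH. In TMM-scaled CPM all ERH libraries were below all control libraries, and 37.4% of tested microRNAs had ERH fully apart from control in either direction. The log2 fold change of mir-30e with TMM scaling was -0.24 (SE 0.052, adjusted p = 0.000371), a level 1.18 times lower. It was -0.28 to -0.21 over the 4 population pairings, all past the test, and -0.28 to -0.19 within batches. In SAFB the libraries ran from 14078 through a median of 14708 to 15913 CPM and overlapped control. The log2 fold change in SAFB was -0.11 (SE 0.052, adjusted p = 0.0861), against -0.37 with spike-in scaling and 0.049 without the first SAFB population. Between ERH and SAFB it was -0.13 (SE 0.052, adjusted p = 0.045), a call that was lost in 8 of 14 alternatives and reversed in 2.

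mir-30d, the more abundant partner on chromosome 15, was higher in SAFB than in both other genotypes with TMM scaling, whereas spike-in scaling put it at -0.015 in SAFB against control and at 0.20 in ERH against SAFB. Its lowest, median and highest library were 4329, 4787 and 5213 CPM in control, 4744, 5646 and 6778 in SAFB and 3947, 4436 and 5249 in ERH. The SAFB libraries were mostly above control, with overlap at 1 SAFB library, guide 1 of batch 3. The log2 fold change in SAFB was 0.26 (SE 0.084, adjusted p = 0.0112, 1.20-fold), 0.11 to 0.41 over the population pairings with 2 of 4 past the test, and 0.20 to 0.31 within batches. The call was lost without the first control population (0.29, adjusted p = 0.0545). In ERH against control it was -0.083 (SE 0.083, adjusted p = 0.433), but 0.22 with total-count scaling (adjusted p = 0.0288). From SAFB to ERH mir-30d fell by 0.34 (SE 0.084, adjusted p = 0.00209), with 2 of 4 population pairings past the test, and total-count scaling ended that call (-0.075, adjusted p = 0.507).

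mir-30b, its partner, had libraries of 822, 1102 and 1238 CPM (lowest, median and highest) in control, 809, 950 and 1214 in SAFB and 683, 847 and 1055 in ERH. The 3 genotypes overlapped widely. The log2 fold change in SAFB was -0.14 (SE 0.11, adjusted p = 0.309), and -0.015 without the control library of guide 1 and batch 2. With spike-in scaling it was -0.36 in SAFB. In ERH it was -0.28 (SE 0.11, adjusted p = 0.0395), against 0.016 with total-count and 0.027 with spike-in scaling. That call rests on little: 1 of 4 population pairings passed the test, and 11 of 15 alternatives lost or reversed it. With the batch number as a block it had an adjusted p of 0.0504. Without the first control population it was -0.071 (adjusted p = 0.735), and without that control library alone it was -0.18 (adjusted p = 0.197). Between ERH and SAFB the log2 fold change was -0.14 (SE 0.11, adjusted p = 0.344 by edgeR's quasi-likelihood test). It was 0.11 there with total-count and 0.39 with spike-in scaling.

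**Figure D2:**
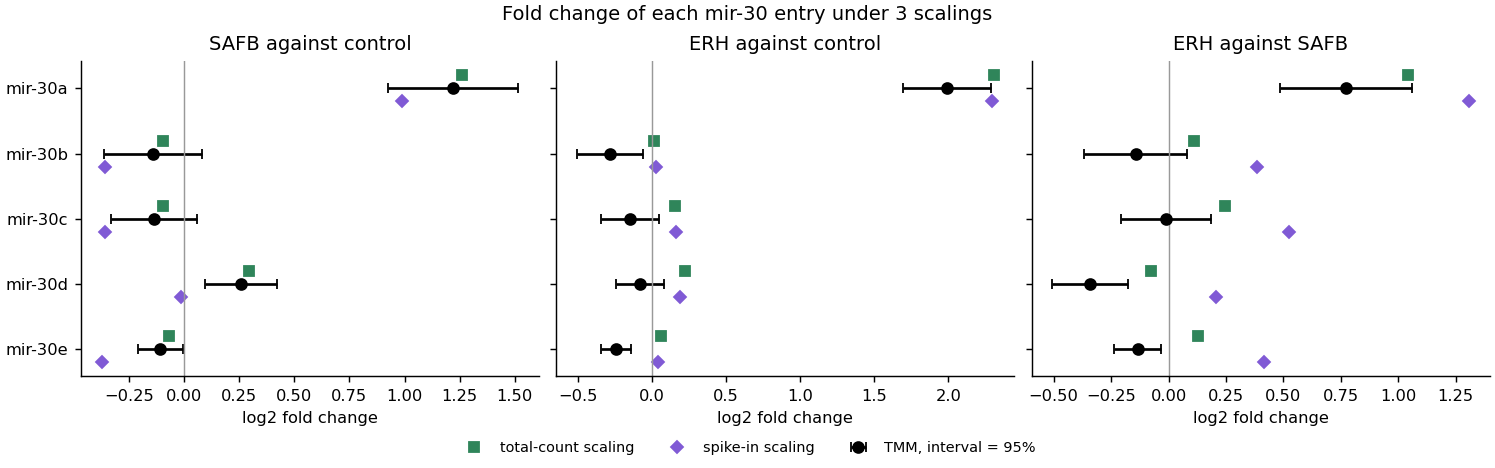
Log2 fold change of each mir-30 entry in the 3 comparisons, with black circles and 95% intervals for TMM scaling, green squares for scaling by total counts and purple diamonds for scaling by spike-ins. mir-30a stays right of 0 under each scaling, whereas mir-30e in ERH against control moves from -0.24 under TMM to 0.062 under total counts.

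The direction of the small changes depended on the scale. Scaling by total counts moved the median of all tested microRNAs by 0.035, 0.30 and 0.27 (SAFB against control, ERH against control, ERH against SAFB), and scaling by spike-ins by -0.24, 0.29 and 0.53. With total counts the split of called microRNAs in ERH against control was 108 higher and 33 lower, and with spike-ins 72 higher and 19 lower. In SAFB against control the spike-ins gave 44 higher and 58 lower. In ERH against SAFB, total counts gave 115 higher and 8 lower and spike-ins 111 and 1. Relative to the median of all tested microRNAs, over 4 scalings (TMM, RLE, total counts and spike-ins), mir-30a was higher by 1.21 to 1.22 in SAFB and by 2.05 to 2.07 in ERH. On the same relative scale mir-30e in ERH was at -0.19 to -0.17, mir-30b in ERH at -0.22 to -0.20, mir-30d in SAFB at 0.22 to 0.25 and mir-30d in ERH against SAFB at -0.39 to -0.37. A change of scaling shifts all microRNAs by nearly the same amount, so these relative values are alike by construction and say nothing about which scaling is right.

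Guides of one genotype were compared as a background. In control, 0% of the 273 microRNAs were called between the populations by edgeR's quasi-likelihood test, with 7 at an unadjusted p under 0.05. In SAFB 0% were called, with 10 at an unadjusted p under 0.05, and in ERH 0.366% (1 microRNA), with 18. No mir-30 entry was called, the lowest adjusted p of a member being 0.872. mir-30c was among those in control with an unadjusted p under the threshold. In control, mir-30b and mir-30c were lower in guide 2 than in guide 1, by -0.30 and -0.28 on the log2 scale (adjusted p = 0.969 for each). These are as large as or larger than the knockout differences of the same members. With spike-in scaling the calls between guides were 96 in control and 110 in ERH, among them mir-30d and mir-30e in both, and 0 in SAFB.

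Ratios of counts within a library need no scaling between libraries and put the locus partners side by side. The 9 ratio tests were exact two-sided permutation tests of 6 against 6 libraries, adjusted together. In control the log2 ratio of mir-30a to mir-30c was -4.53 ± 0.22, in SAFB -3.18 ± 0.25 and in ERH -2.41 ± 0.50 (SD, n = 6). It ran from -4.97 to -4.36 in control, from -3.56 to -2.88 in SAFB and from -3.14 to -1.95 in ERH. The knockouts were apart from control, and they overlapped with each other through the same 2 ERH libraries that were low in mir-30a.

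Against control the mir-30a to mir-30c ratio was higher by 1.35 in SAFB and by 2.12 in ERH, with an exact permutation p of 0.0022 in both, which no arrangement of 6 against 6 libraries can go below, and an adjusted p of 0.00974. Within batches the difference was 1.05 to 1.52 in SAFB and 1.84 to 2.64 in ERH. Between ERH and SAFB it was 0.77 (exact permutation p = 0.0152, adjusted 0.0455), with 0.36 to 1.12 within batches. That last call was lost when libraries were permuted within batches (adjusted p = 0.0556) and with a pseudocount of 1 (adjusted p = 0.052). With the 2 populations of each genotype as the unit, no p under 0.333 is possible. Counts of mir-30a as a percentage of mir-30c were 4.36 ± 0.60 in control, 11.1 ± 1.83 in SAFB and 19.7 ± 6.06 in ERH.

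The other ratios did not pass the same test in any comparison, and whether the ratios differed from each other in their change was not tested. In control the log2 ratio of mir-30e to mir-30c was 3.19 ± 0.19, in SAFB 3.21 ± 0.15 and in ERH 3.09 ± 0.15 (SD, n = 6). The differences from control were 0.026 in SAFB (exact permutation p = 0.799) and -0.096 in ERH (exact permutation p = 0.370, adjusted 0.416). Their signs depended on the control population. Without the first they were -0.13 in SAFB and -0.26 in ERH, and without the second 0.19 and 0.064. Since mir-30c sums both copies, a change of 1 copy against the other could not be seen.

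The ratio of mir-30d to mir-30b is the only one of the 3 that compares single genes of one locus. Its log2 value averaged 2.18 ± 0.30 over control, 2.58 ± 0.37 over SAFB and 2.37 ± 0.34 over ERH libraries (SD, n = 6). In control it ran from 1.82 to 2.67, in SAFB from 1.97 to 3.06 and in ERH from 1.92 to 2.94, so all groups overlapped. The difference from control was 0.40 in SAFB (exact permutation p = 0.0801, adjusted 0.18), 0.21 to 0.66 within batches. In ERH it was 0.19 (exact permutation p = 0.329, adjusted 0.416), and between ERH and SAFB -0.20 (exact permutation p = 0.342, adjusted 0.416). The SD within a genotype was close to the difference in SAFB, and a p over the threshold does not show that the partners changed alike. Without the first control population the differences from control were 0.19 in SAFB and -0.016 in ERH, and without the second 0.60 and 0.40.

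**Figure D3:**
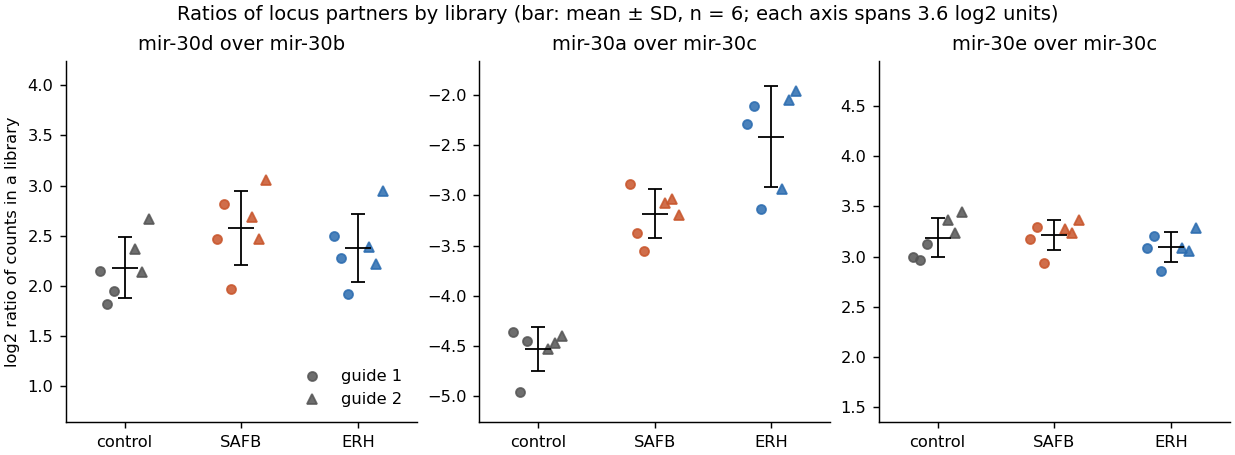
Log2 ratio of counts of locus partners in every library, with circles for guide 1, triangles for guide 2, bars for mean ± SD (n = 6) and axes that all span 3.6 log2 units. The ratio of mir-30a to mir-30c steps up from -4.53 in control to -3.18 in SAFB and -2.41 in ERH, while the groups overlap for mir-30d over mir-30b and mir-30e over mir-30c.

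The closest covariation across libraries was between members on different chromosomes, not between locus partners. Correlations of log2 CPM are given as descriptions over the 18 libraries, which share their scaling factors between entries. mir-30b and mir-30c, which come from different chromosomes, had r = 0.95, and r = 0.968 after the mean of each guide population was taken from its libraries. mir-30b and mir-30d, 3697 bases apart on one strand, had r = -0.327, and r = -0.65 as deviations from population means. mir-30c and mir-30e had 0.513 and 0.709 on these scales, and mir-30c and mir-30a -0.347 and -0.157. mir-30b and mir-30e, from different chromosomes, had 0.609 and 0.616, so the positive values of mir-30c and mir-30e were not particular to locus partners. Where the deviations of mir-30b and mir-30c were high, mir-30d was mostly low.

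**Figure D4:**
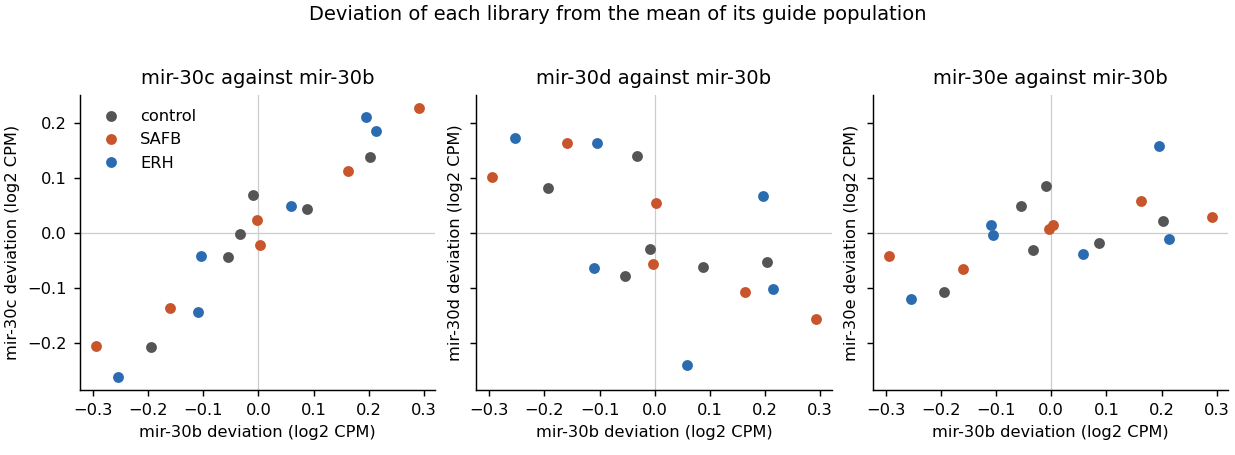
Deviation of each library from the mean of its guide population, in log2 CPM, for mir-30c, mir-30d and mir-30e against mir-30b, with 1 point per library coloured by genotype. mir-30c follows mir-30b closely (r = 0.968), mir-30d runs against it (r = -0.65) and mir-30e follows it loosely (r = 0.616).

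The microRNAs most like each member were looked for among 109 tested entries outside the family with a mean of at least 100 CPM, by Pearson r of log2 CPM over the 18 libraries. For mir-30a they were mir-9 (r = 0.963) and mir-196a (r = 0.96), whose log2 fold changes in ERH were 4.85 and 4.48. Both reached a mean of 100 CPM through ERH alone, where mir-9 averaged 260 and mir-196a 237 CPM against 9.06 and 10.6 CPM in control, so this minimum partly fixed their likeness to a member that rose in ERH. For mir-30b they were mir-29b (0.819) and let-7g (0.77), and for mir-30c mir-29b (0.881) and mir-27a (0.765). mir-30d was most like mir-103 (0.928) and mir-361 (0.88). mir-30e was most like mir-101b (0.907) and mir-26b (0.887), which changed in ERH by -0.60 and -0.36. So mir-30b and mir-30c shared their most similar entry, and no other pair of members did.

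Other neighbouring hairpins that share a seed were listed for context, 14 pairs of which both members were tested in 12. Of the 26 entries in these pairs, 24 were tested, with 5 called higher and 11 lower in SAFB (median log2 fold change -0.47), and 3 higher and 16 lower in ERH (median -0.26), against 84 and 69 and 72 and 75 of all 273. These are values with TMM scaling, and total counts moved the ERH median of all tested microRNAs by 0.30, more than the size of this list's median. The gap between the log2 fold changes of partners had a median of 0.981 in SAFB (0.00152 to 3.83) and of 0.841 in ERH (0.0321 to 2.99). The gap of mir-30a and mir-30c was 1.36 in SAFB and 2.14 in ERH. The gaps of mir-30d and mir-30b (0.399 and 0.200) and of mir-30e and mir-30c (0.0286 and 0.0951) were in the lower part of that range. The widest gap was that of mir-15a and mir-16 in SAFB (3.83) and that of mir-15b and mir-16 in ERH (2.99), where mir-15a and mir-16 were at 2.32. An entry sums all copies of a microRNA, and mir-16 is listed with both mir-15a and mir-15b, as mir-29b is with both mir-29a and mir-29c. Gaps with these entries, like those with mir-30c, are therefore not of a single locus. The same may hold for other listed entries. Both knockouts had been sorted on a miR-15a reporter.

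**Figure D5:**
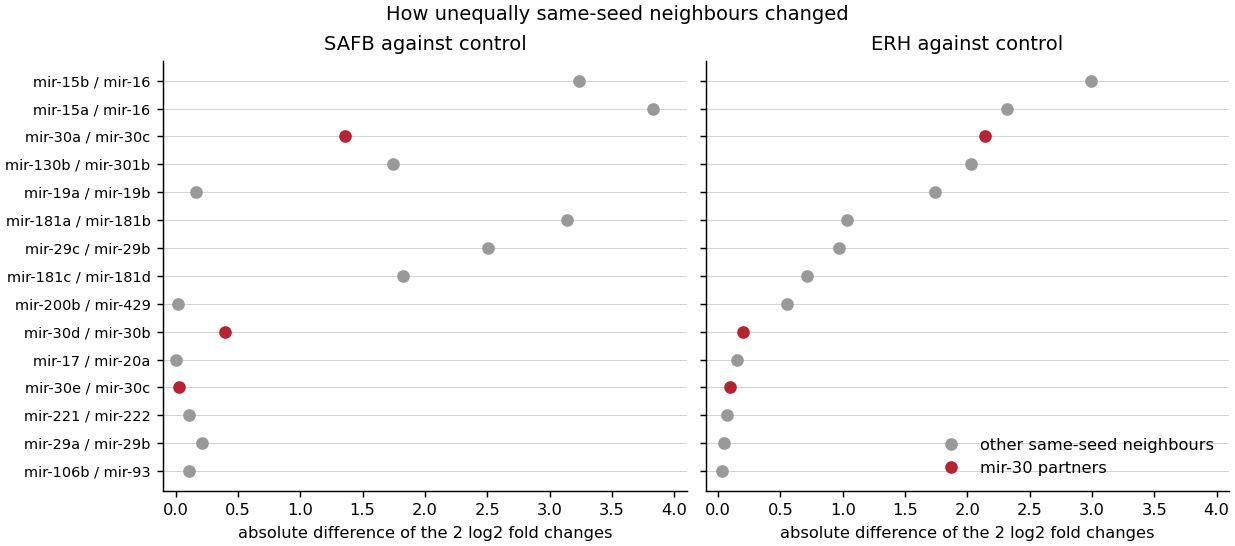
Absolute difference between the log2 fold changes of neighbouring hairpins that share a seed, for SAFB against control and ERH against control, with grey points for the 12 other pairs and red points for the 3 mir-30 pairs, ordered by ERH. The mir-30a and mir-30c pair is at 1.36 and 2.14, and the other mir-30 pairs are at 0.399 or less. Entries sum all copies of a microRNA, so some of these gaps are not of a single locus.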

How the data were processed

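The deposited file holds raw read counts per microRNA entry, not normalized by the authors, for 1006 microRNAs and 4 spike-ins in 18 libraries of Baf3 cells. Per the labels' protocols, libraries were made from total RNA mixed with the spike-ins with the QIAGEN QIAseq miRNA kit. SAMtools is named in the submitters' processing notes. The aligner, counting rules, genome build, annotation and use of molecular identifiers are not given in the sources used here. Reads may not be independent molecules, so depth speaks to counting error only, and preferences of library kits for some sequences are not corrected.

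Counts were tested with edgeR 4.0.16 (limma 3.58.1, R 4.3.3): filterByExpr by population with a minimum count of 10, TMM scaling, 1 mean per genotype over 18 libraries, quasi-likelihood test, Benjamini-Hochberg adjustment over 273 microRNAs, and a threshold of 0.05. The SE is the log2 fold change divided by the square root of F, and 95% intervals are the estimate ± 1.96 SE. Spike-ins were left out of library sizes. Ratios were tested by exact permutation (scipy 1.17.1), and hairpins were folded with RNAfold 2.7.2. The alternatives were RLE, total-count and spike-in scaling, no filter, DESeq2 1.42.0, a batch block, population means, counts summed per population, a pseudocount, single batches and leaving out each population. Scripts were tested on simulated data. The 5 members were named whatever their values, and the most similar microRNAs by the 2 highest correlations. Members, lists and tests were chosen with earlier results of these data known.

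The labels give a batch number to each library, which pairs libraries of different populations. The mean correlation of their deviations from the population mean was 0.0263 over 45 pairs within a batch and -0.0133 over 90 pairs across batches. The 3 libraries of a population were distinct beyond counting error (chi-square per degree of freedom 27.5 to 157), so each was counted. Nothing in the labels says that they came from separate cultures, and p-values then measure only the spread between these libraries, which may be technical.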

Additional observations from a re-analysis of the deposited data

Results flagged for a closer look

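A search for single libraries that stand apart covered 24 groups (5 levels and 3 ratios in 3 genotypes) and picked out 1, where chance picks about 1 in 20. It was the log2 ratio of mir-30a to mir-30c in control, where the library of guide 1 and batch 2 was at -4.97 and the other 5 at -4.54 to -4.36, a gap of 0.709 of the whole range. This library had 64.1 CPM of mir-30a, the lowest in control, and 2002 CPM of mir-30c, the highest. Without it, an alternative chosen after seeing the data, the ratio differed from control by 1.26 in SAFB and 2.03 in ERH, with an adjusted exact permutation p of 0.00974 for each. The ratio of mir-30e to mir-30c in SAFB then went from 0.026 to -0.018 and that of mir-30d to mir-30b in ERH from 0.19 to 0.12, neither past the test with or without it. The log2 fold change of mir-30e in SAFB went from -0.11 to -0.037, and the call of mir-30b in ERH was lost (-0.18).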

How the results depend on the processing

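mir-30a kept its call and direction under all alternatives run: its log2 fold change was 0.99 to 1.39 in SAFB (15 alternatives), 1.94 to 2.31 in ERH (15) and 0.72 to 1.31 between ERH and SAFB (14). Among the alternatives, only total-count and spike-in scaling turned the sign of a called value or made a member uncalled with TMM pass the test. With total counts, the ERH against control values were 0.016 for mir-30b, 0.22 for mir-30d (adjusted p = 0.0288) and 0.062 for mir-30e, and the ERH against SAFB values 0.25 for mir-30c (adjusted p = 0.0461) and 0.13 for mir-30e (adjusted p = 0.00773). With spike-ins, mir-30d was at -0.015 in SAFB, mir-30b at 0.027 and mir-30e at 0.042 in ERH, and mir-30d at 0.20 and mir-30e at 0.41 in ERH against SAFB. Spike-in scaling gave 91 calls in ERH against control, and 96 and 110 between guides of control and of ERH. The call of mir-30d in SAFB was lost without the first control population (0.29, adjusted p = 0.0545) and, in ERH against SAFB, with total counts (-0.075). The call of mir-30b in ERH held in 4 of 15 alternatives and that of mir-30e in ERH against SAFB in 4 of 14. With the batch number as a block, the ERH against SAFB difference of the mir-30a to mir-30c ratio, 0.77, had an adjusted p of 0.0556, and mir-30b in ERH one of 0.0504. The block changed no other call. With a pseudocount of 1 the same ratio difference was 0.77 (adjusted p = 0.052). Batch 2 alone gave 2.64 for this ratio in ERH and batch 3 alone 1.05 in SAFB. Leaving out a population or 1 control library gave 1.26 to 1.43 in SAFB, 2.02 to 2.22 in ERH and 0.67 to 0.87 between ERH and SAFB. Without a population the adjusted p was 0.0536 against control and 0.0714 to 0.161 between knockouts, where 6 against 3 libraries allow no p under 0.0119. Without the 1 control library it was 0.00974 in both. The cause of the other changes was not tested.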
